A study of Mus musculus with 30 samples.

Results

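*Ret* and *Gfra1* encode both parts of the receptor for glial cell line-derived neurotrophic factor (GDNF), and their mRNA levels and half-lives are described here in cultured spermatogonial stem cell (SSC) lines. The genes were taken by name, and both of the 2 had a value in each measurement used, out of 13904 genes with an RNA-seq level and 5806 transcripts with a half-life. The lines were derived from testes of male mice at postnatal day 7 and carried *Nanos2* TAG, an epitope-tagged allele of the RNA-binding protein gene *Nanos2*. Line 4 was labelled *Nanos2* TAG/+ and line 5 *Nanos2* TAG/TAG, so that both carried the tagged allele and no line without the tag entered these measurements. RNA-seq consisted of 1 library per line, and SLAM-seq (thiol-linked alkylation of metabolically labelled RNA) of 12 libraries per line, 2 at each chase time of 0, 30, 60, 120, 540 and 1440 min. All lines were grown on fibroblast feeders in medium containing GDNF together with the growth factors FGF2 and EGF and the cytokine LIF. The sample labels give QIAzol as the extraction reagent for the TAG/+ RNA-seq library and Trizol for the TAG/TAG library, both after feeder depletion, whereas the methods describe sorted SSCs and QIAzol. Genotype, line and reagent therefore differed together and cannot be told apart, and with 1 library per line no difference in level has a replicate check.

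GDNF is secreted in the testis by somatic cells, among them Sertoli cells, and is required for SSC self-renewal. It binds GFRA1, a co-receptor held on the cell surface by a lipid anchor, and this complex activates RET, a transmembrane tyrosine kinase. Active RET recruits adaptor proteins and signals through the PI3K-AKT, RAS-ERK and SRC family kinase pathways. In SSC cultures GDNF is known to induce transcription factor genes such as *Etv5*, *Bcl6b* and *Lhx1*, and *Gfra1* is widely used to mark the most undifferentiated spermatogonia.

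NANOS2 is described in the study as recognizing a short motif, mostly in 3′ untranslated regions (3′ UTRs). That motif was searched as 4 heptamers, which are AUGAAAU, its variant AUGAAUU, the heptamer AUUAAAU and the related AUUAAUU, on the sense strand of the annotated 3′ UTRs of both genes, because their half-lives are compared between *Nanos2* genotypes below. *Ret* lies on chromosome 6 from 118151745 to 118197718 and *Gfra1* on chromosome 19 from 58235604 to 58455909, both on the minus strand of GRCm38 (GENCODE M21 gene models ENSMUSG00000030110.13 and ENSMUSG00000025089.15). The matches are printed 5′ to 3′ in DNA letters from the GRCm38 genome, with the heptamer in capitals and 10 bases on either side.
Ret-201, exon 20, chr6:118152133-118152159, minus strand: aaaaatacggATGAATTcaaattattc
Ret-201, exon 20, chr6:118151893-118151919, minus strand: gttaccccttATTAAATattactgagt
Ret-202, exon 19, chr6:118154568-118154594, minus strand: tttgtcttggATTAAATacttgaaatt
Gfra1-201, exon 11, chr19:58237409-58237435, minus strand: gacaggcaggATGAAATagagcagcca
Gfra1-201, exon 11, chr19:58236128-58236154, minus strand: caagttgctgATGAAATaaaatagtga

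The principal transcript Ret-201 had 2 matches in a 3′ UTR of 2108 bases, at positions 1704 and 1944 after the stop codon. Ret-202 uses an earlier 3′ end, with a 3′ UTR of 690 bases, and its single match at position 672 lies next to that end. The heptamer in Ret-202 and the second one in Ret-201 contain AUUAAA, a known variant of the polyadenylation signal, which overlaps the heptamer there. Gfra1-201 had 2 matches of AUGAAAU in a 3′ UTR of 2787 bases, at positions 966 and 2247, and Gfra1-203 had the same matches. Gfra1-209 ends between them and had 1 match in 1699 bases, whereas the short 3′ UTRs of Gfra1-207 and Gfra1-208 had 0.

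Such matches are common. Of the annotated 3′ UTRs of 12488 genes with an FPKM, 1 per gene, 38.7% held at least 1 of the 4 heptamers. Among 3′ UTRs within 1.2-fold of the length of that of *Ret*, 54.7% held a match and 26.0% held 2 or more. For *Gfra1* the corresponding shares were 67.0% and 34.6%. A match is a description of sequence, and binding of NANOS2 to either mRNA was not analysed here.

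**Figure D1:**
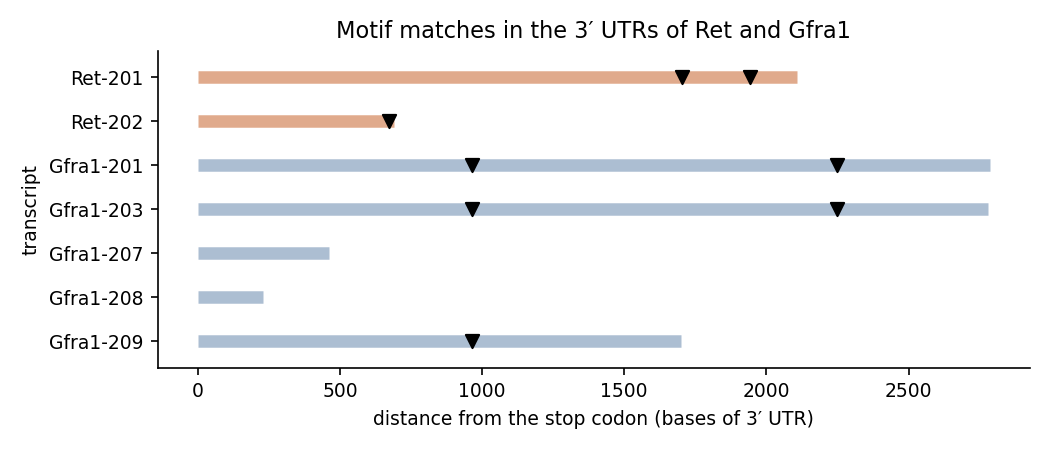
Positions of the heptamer matches (triangles) along the annotated 3′ UTRs (bars) of Ret and Gfra1 transcripts, in bases from the stop codon. Ret-201 and Ret-202 hold 2 and 1 matches, Gfra1-201 and Gfra1-203 hold 2 each, Gfra1-209 holds 1, and Gfra1-207 and Gfra1-208 hold 0.

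*Ret* was among the well-expressed genes in both lines, and its level was higher in the TAG/TAG line. Levels are FPKM, reads scaled to transcript length and library depth, computed by the authors. The reads behind each value were recovered from FPKM and transcript length, and 95% intervals are exact Poisson intervals that cover counting error only. *Ret* had an FPKM of 73.2 in the TAG/+ library (95% interval 70.9 to 75.5, 3974 reads) and of 181 in the TAG/TAG library (177 to 184, 10557 reads). It ranked 1826 of 13904 genes in the TAG/+ library and 617 in the TAG/TAG library, at percentiles 86.9 and 95.6. The median gene had an FPKM of 10.2 and 10.5, so that *Ret* stood 7.18-fold and 17.3-fold above it.

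*Gfra1* followed the same pattern at a lower level. Its FPKM was 56.2 in the TAG/+ library (95% interval 53.2 to 59.4, 1260 reads) and 111 in the TAG/TAG library (107 to 115, 2677 reads). It ranked 2378 and 1151, at percentiles 82.9 and 91.7, and stood 5.51-fold and 10.6-fold above the median gene. In each library *Ret* was above *Gfra1*, and their counting intervals did not overlap.

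The level of *Ret* in the TAG/TAG library was 2.47 times that in the TAG/+ library (95% interval 2.38 to 2.56, exact conditional binomial, counting error only), a log2 ratio of 1.30 with a pseudocount of 0.1 FPKM. That of *Gfra1* was 1.97 times as high (1.85 to 2.11), a log2 ratio of 0.98. With 1 library per line a gene was called where the FPKM differed by more than 2-fold with the same pseudocount. By this rule 13.5% of all genes were higher in the TAG/TAG line and 9.59% were lower. *Ret* passed the threshold, and *Gfra1* lay just under it with an interval that spans it.

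The ratios of both genes were high for their expression level. Among all genes the log2 ratio of *Ret* was at percentile 90.3 and that of *Gfra1* at percentile 86.1. Genes with few reads vary more, and among the 1715 genes with a mean FPKM within 2-fold of that of *Ret* the quartiles of the log2 ratio were -0.28 and 0.25. *Ret* was at percentile 98.5 of these. Among the 2387 genes within 2-fold of *Gfra1* the quartiles were -0.29 and 0.25, and *Gfra1* was at percentile 96.5. The median log2 ratio over all genes was 0.0089, so the libraries were centred on each other.

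Markers of the cultured cells and of other cell types were read in the same libraries. Germ cell markers were present in both, and 12 of the 14 with an FPKM were within 2-fold. The other 2 were called higher, a share near the 13.5% of all genes. *Tex14*, a germ cell gene needed for intercellular bridges, had an FPKM of 249 and 259.9 in the TAG/+ and TAG/TAG libraries, *Sall4*, a transcription factor of undifferentiated spermatogonia, had 214 and 192, and *Dnd1*, an RNA-binding partner of NANOS2, had 189 and 151. The exceptions, both higher in the TAG/TAG line, were *Eomes*, a marker of a subset of SSCs, at 0.272 and 5.95, and *Utf1*, a chromatin protein of undifferentiated cells, at 3.88 and 11.5. *Nanos2* itself, the tagged gene, had an FPKM of 27.5 and 23.8.

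Markers of differentiating spermatogonia were mostly within 2-fold, and none was called lower, against 9.59% of all genes. Of 6 measured, 4 were lower in the TAG/TAG library within 2-fold, among them *Kit*, the stem cell factor receptor, at 38.5 in the TAG/+ library and 30.7 in the TAG/TAG library, and *Sohlh1*, a transcription factor of differentiating spermatogonia, at 16.9 and 10.4. *Stra8* had 8.21 and 6.18, with a ratio interval of 0.564 to 1.004 that includes equality. *Dmrtb1* was higher within 2-fold, at 3.67 and 4.86. *Neurog3*, a marker of progenitors, was the only one called, with 0.574 and 8.23, against 13.5% of all genes called higher. Lower values were common among all genes too, whose median log2 ratio was 0.0089.

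Genes listed as markers of other cells moved with *Ret* and *Gfra1* in part. Of 12 genes listed as fibroblast markers, 4 were more than 2-fold higher in the TAG/TAG library, against 13.5% of all genes. None was more than 2-fold lower, against 9.59%. The 4 were *Pdgfrb*, *Dcn*, *Thy1* and *Sparc*. Whether these were restricted to fibroblasts in these cultures or were also expressed by the SSCs was not tested. The summed FPKM of all 12 was 415 in the TAG/+ library and 581 in the TAG/TAG library, and none was at 0. The most abundant, *Fn1* (fibronectin), had an FPKM of 254 and 280.1, *Sparc*, a matrix protein, had 73.9 and 158, and *Pdgfrb*, a receptor of mesenchymal cells, had 0.66 and 6.75. *Col1a1*, a collagen gene, was 1.76 times as high in the TAG/TAG library, within 2-fold. Of the 12 markers 10 were higher there. Lower within 2-fold were *Mmp2* at 13.7 and 12.6 and *Col3a1* at 7.1 and 6.79, named in addition after their values were seen. Of 4 Sertoli cell markers 3 were more than 2-fold higher, against the same 13.5% of all genes. Their list had sums of 5.89 and 27.1, led by *Wt1* at 2.51 and 19.6. *Sox9* passed the threshold narrowly, with a ratio of 2.05 and an interval of 1.61 to 2.62 that spans it. *Gata4* rested on 13 and 51 reads. The macrophage marker *Cd68* had 2.80 and 10.2, and *Phox2a*, a gene of RET-positive neural cells, had 3.63 and 6.28. *Star*, the 1 Leydig cell marker with a value, was lower, with 118 reads in the TAG/+ library and 33 in the TAG/TAG library. In bulk samples a larger share of cells that express a gene and more RNA per cell cannot be told apart, and the part of any of these cells in the *Ret* and *Gfra1* values was not tested. Other defining markers of these cells, such as *Amh* of Sertoli cells and *Csf1r* of macrophages, were not analysed here.

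*Ret* mRNA was more abundant than *Gfra1* mRNA, and by more in the TAG/TAG line. The FPKM ratio of *Ret* to *Gfra1* was 1.30 in the TAG/+ library (95% interval 1.22 to 1.39, counting error only) and 1.63 in the TAG/TAG library (1.56 to 1.70). The ratio was thus 1.25-fold higher in the TAG/TAG library (conditional interval of the odds ratio, 1.16 to 1.35), a change that does not depend on the length assigned to a gene. The level of the ratio does depend on it. FPKM was scaled to the mean length of all annotated transcripts, 4976.5 bases for the 2 transcripts of *Ret* and 2055 bases for the 9 of *Gfra1*, which include 5′ fragments as short as 349 bases.

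Scaled instead to the longest principal transcript of each gene, 5456 bases for *Ret* and 4641 for *Gfra1*, the levels of *Ret* were 66.8 and 165 in the TAG/+ and TAG/TAG lines and those of *Gfra1* were 24.9 and 49.1. *Ret* then exceeded *Gfra1* by 2.68-fold and 3.35-fold. The order of the genes was the same under both lengths, and the distance between them was not. Gfra1-209 and Gfra1-208, of 3224 and 1937 bases, are annotated as principal too. A shorter length gives *Gfra1* a higher level, and neither of these lengths was run. No 50-mer of the *Ret* transcripts occurred in another gene's transcripts, whereas 6.66% of those of *Gfra1* were shared with Gm16277, a gene on the opposite strand. Whether the counting used strand is not given in the sources used here, so a small part of the *Gfra1* reads could come from that gene.

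Among receptor tyrosine kinases *Ret* was one of the most abundant mRNAs, and its place in the TAG/+ line depended on the gene length used. In the TAG/TAG library it was first of 46, before *Fgfr1*, a receptor of FGF2, at 147 (143 to 152), *Epha2*, an ephrin receptor, at 112 (107 to 117), *Ddr1*, a collagen receptor, at 111 (107 to 115), and *Igf1r*, a receptor of insulin-like growth factors, at 104 (100.5 to 107). *Epha2* and *Ddr1* did not differ beyond their counting intervals, and *Ret* stood above the interval of *Fgfr1*. In the TAG/+ library *Ret* had rank 3, after *Igf1r* at 119 (116 to 123) and *Fgfr1* at 107 (103 to 112) and next to *Ryk*, a WNT receptor, at 68.7 (65.0 to 72.5), whose interval overlapped that of *Ret*. Scaled to the longest principal transcripts, *Ret* was first in both lines, and in the TAG/+ line it had 66.8 against 48.2 for *Fgfr1* and 35.1 for *Igf1r*.

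*Ret* made up 11.6% of the summed FPKM of these kinases in the TAG/+ line and 17.9% in the TAG/TAG line. Of the 46 kinases 20 were more than 2-fold higher in the TAG/TAG line and 3 were lower, against 13.5% and 9.59% of all genes, with a median log2 ratio of 0.72. The largest ratios among those with an FPKM of at least 1 in either line were those of *Pdgfrb*, *Epha4*, an ephrin receptor, at 0.0536 and 1.19 (2 and 48 reads), and *Styk1*, a kinase with little extracellular part, at 0.181 and 1.12 (3 and 20 reads). As deposited, the FPKM of *Ret* was above that of every other called kinase in both libraries. *Epha2* and *Ddr1*, also called, had 112 and 111 in the TAG/TAG library. The median FPKM of all 46 kinases, called or not, was 2.35 and 4.30.

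**Figure D2:**
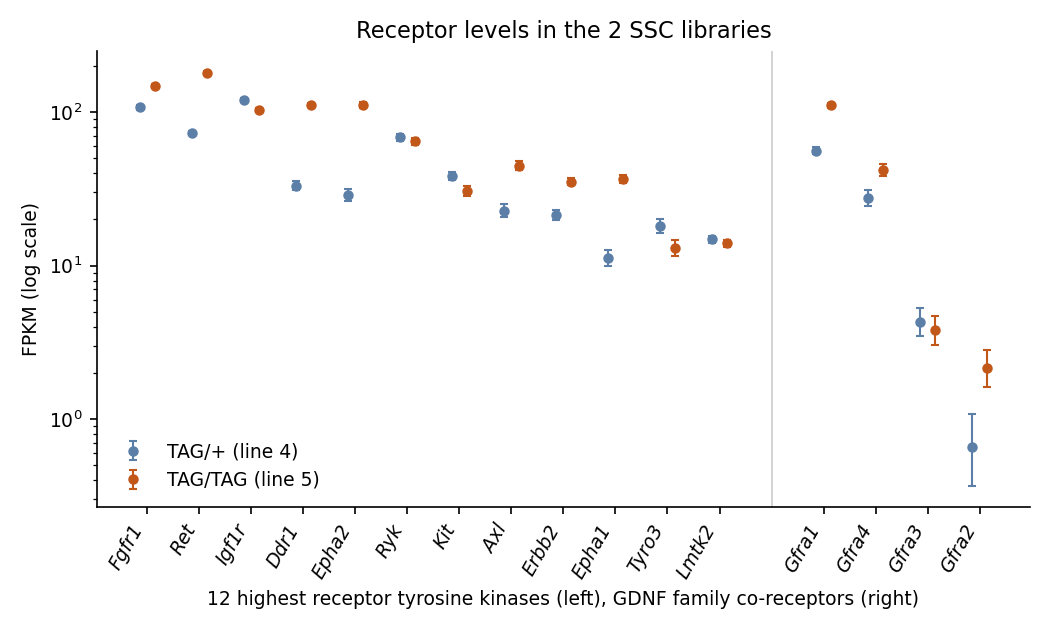
FPKM (log axis) of the 12 receptor tyrosine kinases with the highest mean level and of the 4 GDNF family co-receptors with a value, in the TAG/+ (blue) and TAG/TAG (orange) libraries. Bars are 95% Poisson intervals of counting error, and Ret at 73.2 and 181 and Gfra1 at 56.2 and 111 are both higher in the TAG/TAG library.

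Of the 4 GDNF family co-receptors with a value, *Gfra1* and *Gfra4*, the persephin co-receptor, were the most abundant in both lines, and their order depended on the gene length used. As deposited, *Gfra1* was first and made up 63.3% of the summed FPKM in the TAG/+ line and 69.8% in the TAG/TAG line, and *Gfra4* had 27.6 and 42.1. Scaled to the longest principal transcripts, *Gfra4* had 30.5 and 46.4, above the 24.9 of *Gfra1* in the TAG/+ line and below its 49.1 in the TAG/TAG line. The share of *Gfra1* was then 41.4% and 48.8%. *Gfra3*, the artemin co-receptor, had 4.31 (94 reads) and 3.80 (89 reads). *Gfra2*, the neurturin co-receptor, was the lowest at 0.657 (15 reads) and 2.16 (53 reads). It was the only 1 of the 4 called higher in the TAG/TAG line, against 13.5% of all genes. Its ratio of 3.28 had an interval of 1.82 to 6.27 that spans the threshold. *Gfra3* did not differ between the libraries beyond counting error, with a ratio of 0.88 (95% interval 0.651 to 1.19). The fifth member, *Gfral*, the receptor of GDF15, was not analysed here.

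Of the ligands of the family *Nrtn* (neurturin) had an FPKM of 3.94 in the TAG/+ library and 8.58 in the TAG/TAG library, from 44 and 103 reads. *Gdnf*, *Artn*, *Pspn* and *Gdf15* were not analysed here. Of all genes, 13.5% were called higher and 9.59% lower. The other surface proteins that can bind GDNF were within 2-fold between the lines, as most genes were. These were *Ncam1*, an adhesion molecule, at 8.57 and 9.50, *Sdc3*, a heparan sulfate proteoglycan, at 13.3 and 13.6, and *Cdh2*, a cadherin, at 8.52 and 10.2.

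Most adaptors and substrates that carry the signal from RET were within 2-fold between the lines. Of 27 measured, 4 were more than 2-fold higher in the TAG/TAG line and 0 were lower, with a median log2 ratio of 0.33. The share called higher is near that of all genes, 13.5%, and 9.59% of all genes were called lower. The most abundant was *Stat3*, a transcription factor that RET and LIF signalling share, at 404 in the TAG/+ library and 307 in the TAG/TAG library. *Pdlim7*, which binds RET through a LIM domain, had 81.1 and 137, and *Fyn*, a SRC family kinase, had 71.2 and 118. Among adaptors with an FPKM of at least 1 in either line, the largest ratios were those of the docking proteins *Dok1*, at 1.33 and 6.14 (20 and 99 reads), and *Dok2*, at 0.815 and 3.79 (5 and 25 reads), followed by *Grb7*, a RET-binding adaptor, at 19.0 and 39.9.

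Genes for RET turnover and trafficking were within 2-fold in all 10 measured cases, with a median log2 ratio of -0.23. Of all genes, 13.5% were called higher and 9.59% lower, so most genes were within 2-fold too. *Cbl*, a ubiquitin ligase for activated receptor kinases, had an FPKM of 79.3 and 90.2, and its relative *Cblb* had 47.3 and 40.9. *Nedd4*, another ubiquitin ligase, had 211 and 153. *Sorl1*, a sorting receptor for GDNF and its receptors, had 9.70 and 14.2.

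Most receptors of the other culture factors were within 2-fold as well. Of 12 measured, 2 were called higher in the TAG/TAG line, *Fgfr2* at 0.555 and 2.10 and *Fgfr3* at 1.76 and 4.01, both receptors of fibroblast growth factors, and 0 were called lower, against 13.5% and 9.59% of all genes. The 12 include *Kit*, although its ligand, stem cell factor, is not named among the factors added to the medium. *Lifr*, the LIF receptor, had 23.1 and 23.8, and *Il6st*, its signalling partner, had 58.7 and 58.8, with a ratio of 1.00 (95% interval 0.939 to 1.07). *Egfr*, the EGF receptor, was low in both lines at 1.61 and 0.836 (52 and 29 reads), and *Fgfr1*, the most abundant FGF receptor, was 1.37-fold higher in the TAG/TAG library (1.30 to 1.44). *Ret* at 2.47-fold and *Gfra1* at 1.97-fold were above *Erbb2* (1.64, interval up to 1.80) and *Erbb3* (1.70, 1.45 to 1.99), of the EGF receptor family, though the interval of *Erbb3* overlapped that of *Gfra1*. *Fgfr2* (3.79, 2.04 to 7.58) was above both and *Fgfr3* (2.28, 1.58 to 3.35) lay between them, each with an interval that overlapped theirs.

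Genes known to respond to GDNF were, where called, higher in the TAG/TAG library. Of 14 measured, 8 were more than 2-fold higher in the TAG/TAG line and 0 were lower, against 13.5% and 9.59% of all genes, and the median log2 ratio was 1.56. *Bcl6b*, a transcriptional repressor that supports SSC maintenance, had an FPKM of 23.1 (370 reads) and 225 (3872 reads). *Etv4*, an ETS transcription factor, had 43.6 and 204. *Cxcr4*, a chemokine receptor of SSCs, had 1.49 (22 reads) and 10.2 (162 reads), and *Tspan8*, a surface protein of SSC-enriched cells, had 0.17 (2 reads) and 1.98 (25 reads).

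*Etv5*, *Nefm*, *T*, *Pou3f1*, *Mycn*, *Egr3*, *Id4* and *Nanos2* are named in addition, chosen after their values were seen. *Etv5*, the closest relative of *Etv4* here, had an FPKM of 46.0 and 178, *Nefm*, a neurofilament gene, had 3.40 and 13.7, and *T*, a T-box transcription factor, had 4.81 and 21.2. *Lhx1*, a homeobox gene, had 11.6 and 26.1. The list was not uniform, since *Ccnd2*, a cyclin and the most abundant member, had 263 and 371, and *Pou3f1*, a POU domain factor, had 21.6 and 18.1. Of the 14 genes 10 were higher in the TAG/TAG library, among them *Mycn* at 73.0 and 80.1, a ratio of 1.10. Lower like *Pou3f1* were *Egr3* at 5.75 and 4.51, *Id4* at 1.76 and 1.59, and *Nanos2* at 27.5 and 23.8. Several genes of the list are also induced by FGF2 in SSC cultures. The lists were put together with results of these libraries known, so the counts are a description of 2 libraries.

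**Figure D3:**
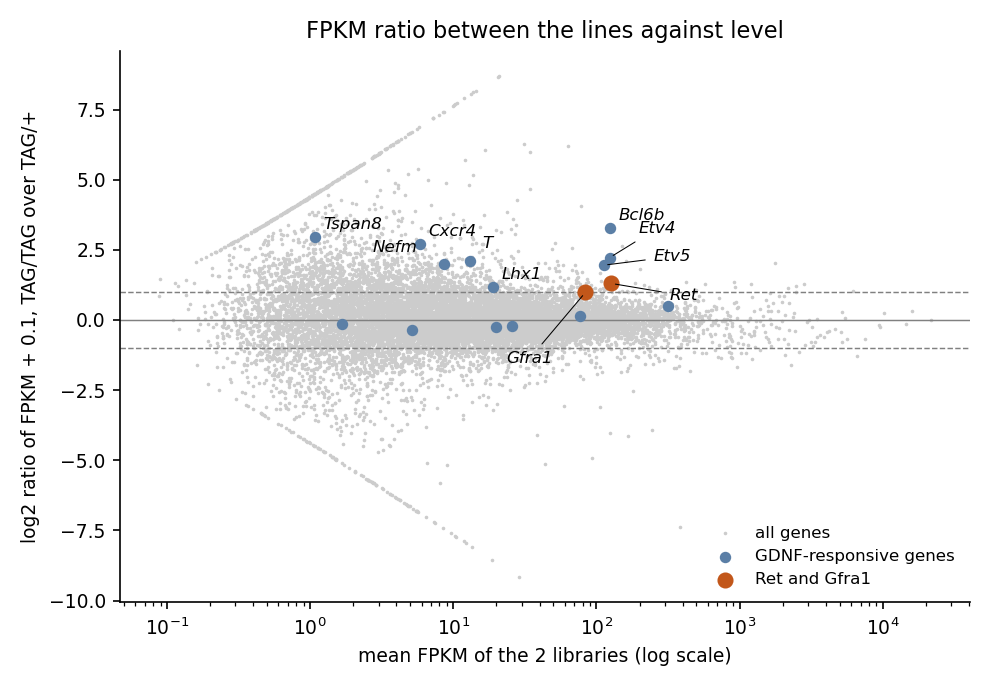
Log2 ratio of FPKM + 0.1 (TAG/TAG over TAG/+) against mean FPKM (log axis) for 13904 genes, with Ret and Gfra1 in orange and GDNF-responsive genes in blue, named where the ratio is past 2-fold (dashed lines). Ret at 1.30 and Gfra1 at 0.98 lie at the upper edge of genes of their level, below Bcl6b, Etv4 and Etv5.

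**Figure D4:**
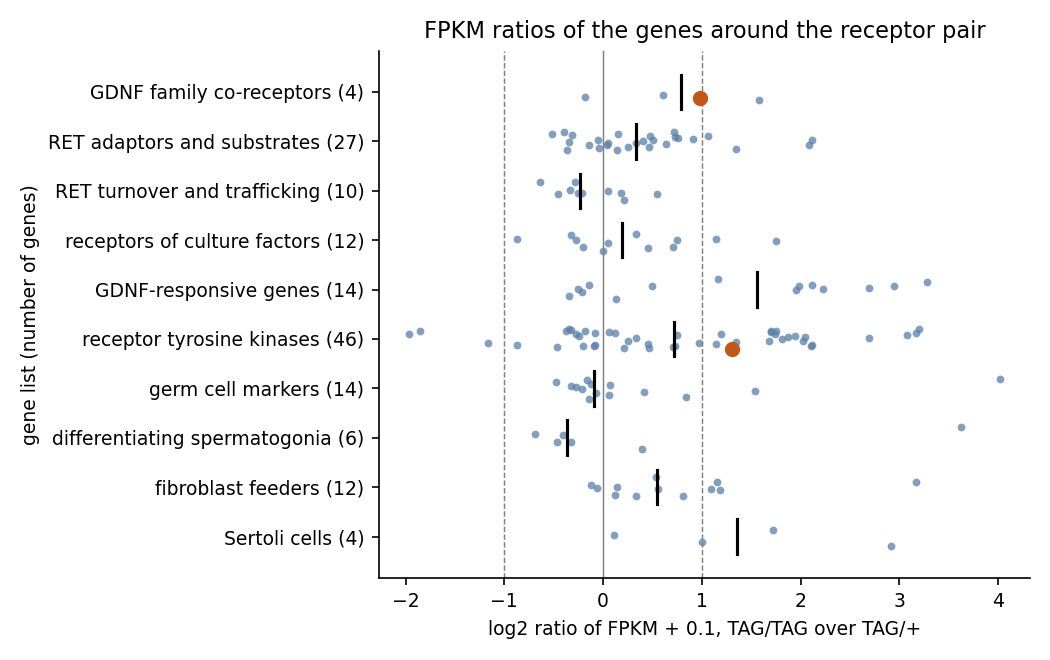
Log2 ratio of FPKM + 0.1 (TAG/TAG over TAG/+) of every measured gene in 10 lists, 1 point a gene, with the list median as a black bar, Ret and Gfra1 in orange and 2-fold as dashed lines. The median is 1.56 for GDNF-responsive genes, 0.33 for RET adaptors and substrates and -0.23 for RET turnover genes.

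The half-lives of *Ret* and *Gfra1* were near the middle of all transcripts and nearly equal to each other. Half-lives are the authors' fits of a first-order decay to the loss of T to C conversions during the chase, 1 value in minutes per transcript and line, with no error and no depth. The labels call the matching sample sets CTL and EXP, so which half-lives belong to which line rests on the names of the tables alone. *Ret* mRNA had a half-life of 259 min in the TAG/+ line and 243 min in the TAG/TAG line, and *Gfra1* mRNA had 244 and 257 min. *Ret* was the longer-lived of the pair in the TAG/+ line and *Gfra1* in the TAG/TAG line, and without an error it cannot be said whether they differ. Over all 5806 transcripts the median was 224 min (quartiles 162 and 289) in the TAG/+ line and 226 min (159 and 300) in the TAG/TAG line.

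*Ret* was at percentile 65.0 of half-lives in the TAG/+ line and 56.9 in the TAG/TAG line, ranking 2035 and 2501 from the longest, and *Gfra1* was at percentiles 58.5 and 61.7, ranking 2408 and 2223. Transcripts of like level had longer half-lives than the median of all transcripts, and both genes had a lower position among them. Among 1223 transcripts with a mean FPKM within 2-fold of *Ret* the median half-life was 267 min in the TAG/+ line and 276 min in the TAG/TAG line, and *Ret* was at percentiles 45.1 and 35.1. Among 1593 transcripts within 2-fold of *Gfra1* the medians were 252 and 255 min, and *Gfra1* was at percentiles 45.4 and 50.5. The lowest of these 4 positions was that of *Ret* in the TAG/TAG line.

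The half-lives of both genes were close between the lines, whereas their levels were 2.47-fold and 1.97-fold apart. The half-life of *Ret* in the TAG/TAG line was 0.94 times that in the TAG/+ line (log2 ratio -0.09, percentile 36.6 of all transcripts), and that of *Gfra1* was 1.05 times (log2 ratio 0.07, percentile 54.4). Past 1.5-fold, the threshold used for half-lives, 583 of 5806 transcripts (10%) were longer-lived in the TAG/TAG line and 621 (10.7%) were shorter-lived. Neither *Ret* nor *Gfra1* was called. The quartiles of the log2 ratio over all transcripts were -0.24 and 0.28, which hold both genes.

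Of the 262 genes with both measures that were more than 2-fold higher in FPKM in the TAG/TAG line, as *Ret* was, 178 had half-lives within 1.5-fold, or 67.9%. A further 45 were longer-lived and 39 shorter-lived, and the median log2 half-life ratio of these genes was 0.0085. Among the 4697 genes within 2-fold in FPKM, 79.8% were within 1.5-fold in half-life.

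The GDNF-responsive genes were split on this measure. Of 9 with a half-life, 3 were more than 1.5-fold longer-lived in the TAG/TAG line and 0 shorter-lived, against 10% and 10.7% of all transcripts. *Bcl6b* had 787 min in the TAG/+ line and 1219 min in the TAG/TAG line, the longest half-lives of the list. Both lie between the last chase times, 540 and 1440 min, the TAG/TAG value nearer to the end. *Lhx1* had 86.7 and 167 min, and *Etv4* had 176 and 276 min. All 3 were also called higher in FPKM. *Etv5* had 236 and 259 min and *Nefm* had 237 and 273 min, within 1.5-fold as *Ret* and *Gfra1* were. *Egr2*, an immediate early gene, had the shortest half-life of the list in the TAG/TAG line, with 127 and 126 min.

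**Figure D5:**
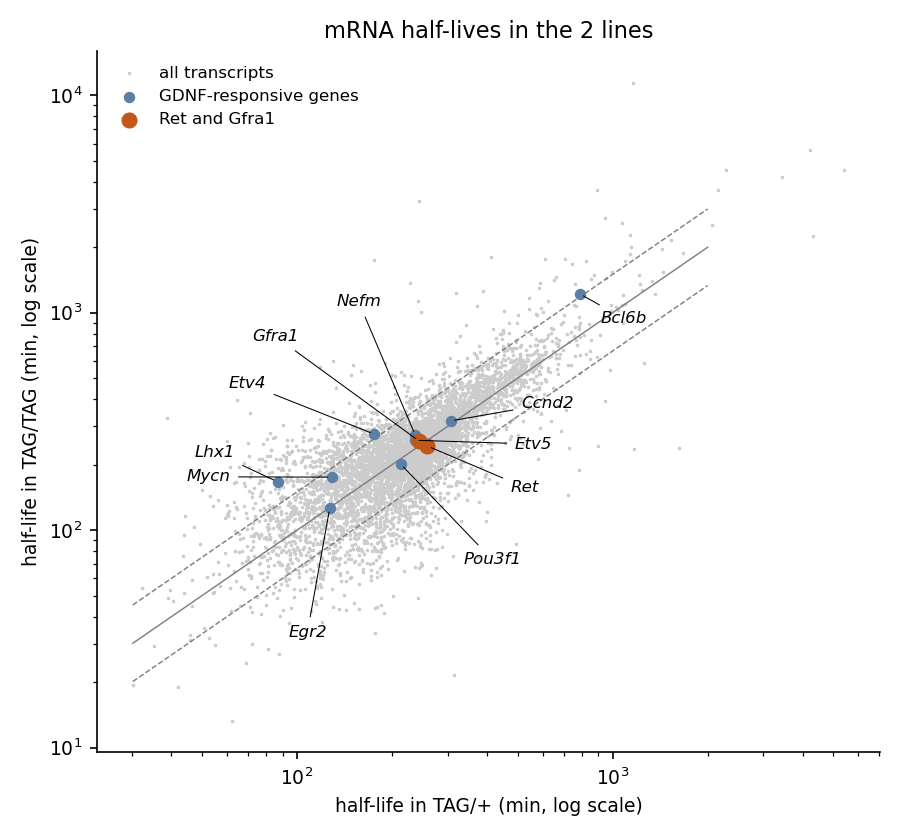
Half-life in the TAG/TAG line against that in the TAG/+ line (min, log axes) for 5806 transcripts, with equality as a solid line, 1.5-fold as dashed lines, Ret and Gfra1 in orange and GDNF-responsive genes in blue. Ret (259 and 243 min) and Gfra1 (244 and 257 min) lie on either side of equality, and Bcl6b, Lhx1 and Etv4 lie above 1.5-fold.

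Among the signalling genes, the adaptors and substrates had a median half-life below those of the receptor pair. The median of the 13 with a value was 169 min in the TAG/+ line and 189 min in the TAG/TAG line. The medians over all transcripts were 224 and 226 min. *Gab2*, a docking protein of the PI3K pathway, had the shortest half-life in the TAG/+ line at 68.1 min, against 205 min in the TAG/TAG line, and *Crk*, an adaptor, had the shortest in the TAG/TAG line at 105 min, against 169 min in the TAG/+ line. *Pdlim7* had the longest, 349 and 314 min. The median half-life of the 9 genes for RET turnover was 269 and 270.4 min. *Cbl* had 205 min in the TAG/+ line and 138 min in the TAG/TAG line, *Cblb* 157 and 141 min, and *Nedd4* 297 and 352 min.

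Of the other receptors *Fgfr1* had 263 min in the TAG/+ line and 325 min in the TAG/TAG line, *Igf1r* 279 and 297 min, *Il6st* 162 and 170 min, and *Erbb2* 203 and 167 min. The median of 11 receptor tyrosine kinases was 259 and 257.5 min, so that *Ret* was the median kinase in the TAG/+ line. *Aatk*, a membrane kinase of the nervous system, had the shortest half-life in the TAG/+ line at 59.9 min, and *Ryk* the longest in the TAG/TAG line at 363 min. SLAM-seq libraries of this study were made from 3′ ends, and 1 value per gene does not separate Ret-201 from Ret-202 or the *Gfra1* transcripts that end at different sites.

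The genes most like *Ret* in level were sought by the distance in log2(FPKM + 0.1) over both libraries, that is over 2 values. The 5 nearest were *Sparc* (distance 0.196), *Grcc10*, *Hist1h2bq*, *Hist1h2br* and *Gm15536*, and *Gfra1* was 172nd at a distance of 0.799. *Sparc* is also one of the fibroblast markers above. The 5 nearest to *Gfra1* were *Fam102a* (0.0695), *Rps13-ps1*, *Gas2l1*, *Ahdc1* and *Tonsl*, and *Ret* was 619th. By log2 half-life over both lines *Oaz2* (0.0084), *Tax1bp1*, *Caprin1*, *Samd4b* and *Nek4* were nearest to *Ret*, and *Fance* (0.005), *Gna13*, *Tti1*, *Syce1* and *Tmem131* to *Gfra1*. With 2 values per gene these neighbours share a level and a ratio only.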

How the data were processed

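The RNA-seq table that the authors deposited holds FPKM for 13904 genes in 1 library per line, made from ribosomal RNA-depleted total RNA with a stranded kit. The submitters' processing notes name kallisto and DESeq2 with no version, and the annotation is not given in the sources used here. The half-lives deposited by the authors (a value in minutes per transcript and line, neither a count nor a ratio) were fitted with nls to SlamDunk conversion rates normalized to the start of the chase, with technical replicates collapsed. CRAC samples were not analysed here. Columns of the tables that were not used numbered 0.

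FPKM multiplied by the mean length of a gene's GENCODE M21 transcripts and by a constant per library gave whole reads, within 0.02, for 100% of 13884 genes. The constants were 10908790 reads (TAG/+) and 11738620 reads (TAG/TAG), and the recovered reads summed to 10977831 and 11656606. Genes listed at 0 numbered 254 and 102. Log2 ratios used a pseudocount of 0.1 FPKM. Genes were called past 2-fold in FPKM and past 1.5-fold in half-life. With 1 library or 1 fitted value per line no test was made, and the exact Poisson and conditional binomial 95% intervals cover counting error only. Percentiles are among all genes or transcripts listed.

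The members, gene lists, thresholds and naming rule were chosen with earlier results of these data known. Every member of a list of up to 13 genes could be named. Of longer lists the 3 highest by mean FPKM and the shortest and longest half-lives could be named. So could the 3 largest absolute log2 ratios among genes with an FPKM of at least 1 in either line. Not every such gene was named, and half-lives of the germ cell and fibroblast markers were not described. The 5 genes nearest to each member were named. Other names are stated as chosen later or stand next to a member in an order of levels. The lists were GDNF family ligands, co-receptors and surface proteins, RET adaptors, RET turnover genes, receptors of culture factors, GDNF-responsive genes, receptor tyrosine kinases, and markers of germ cells, differentiating spermatogonia, fibroblasts, Sertoli cells, Leydig cells, macrophages and RET-positive neural cells. Alternatives were other pseudocounts, rescaled libraries, subsets of genes and, added after the data were seen, the length of the longest APPRIS principal transcript. Functions were tested on simulated data. Python 3.11.15, numpy 2.4.6, pandas 2.3.3, scipy 1.17.1, pysam 0.24.0 and matplotlib 3.10.9 were used.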

Additional observations from a re-analysis of the deposited data

How the results depend on the processing

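The log2 FPKM ratios of *Ret* and *Gfra1* kept their direction under every alternative run. With a pseudocount of 1, no pseudocount or the libraries rescaled to a median log2 ratio of 0, they stayed within their counting intervals. With FPKM rescaled to the same sum in both libraries, the ratio of *Ret* was 1.38 and that of *Gfra1* 1.06, which puts *Gfra1* past 2-fold, since the summed FPKM of the libraries differed by 0.0797 on the log2 scale.

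Percentiles depend on the genes they are taken among. Among genes with an FPKM of at least 1 in both libraries, the level of *Ret* was at percentiles 84.1 (TAG/+) and 94.6 (TAG/TAG) and that of *Gfra1* at 79.3 and 90.0. Among genes with half-lives the values were 75.5 and 92.2 for *Ret* and 68.8 and 84.7 for *Gfra1*. With the length of the longest principal transcript, an alternative chosen after seeing the data, they were 92.1 and 97.4 for *Ret* and 77.8 and 88.9 for *Gfra1*. With that length *Ret* was first of the receptor tyrosine kinases in both lines, rank 1 instead of 3 in the TAG/+ line, *Gfra1* had rank 2 instead of 1 among the co-receptors in the TAG/+ line, and the *Ret* to *Gfra1* ratios were 2.68 and 3.35. Among genes of like mean FPKM the log2 ratio of *Ret* was at percentile 98.5 and that of *Gfra1* at 96.5, and the half-life percentiles were 45.1 and 35.1 for *Ret* and 45.4 and 50.5 for *Gfra1*. The other limits on half-lives moved these percentiles by less than 1 point.

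The number of genes past 2-fold fell from 1883 higher and 1334 lower in the TAG/TAG line to 1170 and 845 with a pseudocount of 1, and to 912 and 749 among genes with an FPKM of at least 1 in both libraries. No paired analysis was possible because each line has 1 RNA-seq library and 1 half-life per transcript, and for the same reason no replicate could be left out. How precise any one half-life is cannot be read from these tables, which give no error and no depth.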

Other observations

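Several other receptor tyrosine kinases, chosen after their values were seen, were higher in the TAG/TAG library, and their levels there were above the median of the list. *Ddr1* had an FPKM of 33.2 in the TAG/+ library and 111 in the TAG/TAG library, a ratio of 3.35 (95% interval 3.10 to 3.62, counting error only). *Epha2* had 29.0 and 112, a ratio of 3.86 (3.49 to 4.28), and *Epha1*, another ephrin receptor, had 11.3 and 36.8, a ratio of 3.26 (2.86 to 3.72). *Met*, the receptor of hepatocyte growth factor, had 1.57 and 7.12. Its TAG/+ level was below the list median of 2.35 in that library. The half-lives of *Ddr1* were 305 and 341 min and those of *Epha2* 161 and 188 min, within 1.5-fold in both cases. *Kit* was lower at 0.796 times (0.726 to 0.873). *Star*, the Leydig cell marker, had a ratio of 0.26 (0.171 to 0.385).

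*Cdh2*, a surface protein that can bind GDNF, had a half-life of 161 min in the TAG/+ line and 310.0 min in the TAG/TAG line, while its FPKM differed by 1.19-fold. *Sh3kbp1*, an adaptor for receptor endocytosis, had 170 and 92.9 min with an FPKM of 14.6 and 12.3.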
